A study of Mus musculus with 9 samples.

Results

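The genes described here encode enzymes that the body uses to chemically change and then tag foreign molecules so that they can be removed, apart from the cytochromes P450. They were chosen by gene symbol and belong to 8 enzyme families: the aldehyde oxidases (Aox), flavin monooxygenases (Fmo), aldehyde dehydrogenases (Aldh), epoxide hydrolases (Ephx) and carboxylesterases (Ces), and the conjugating glutathione S-transferases (Gst), sulfotransferases (Sult) and UDP-glucuronosyltransferases (Ugt). The array annotation names 19938 genes, of which 94 met this rule. Where a gene had several probe sets (the groups of short oligonucleotides that report on a transcript), the one with the highest mean over all arrays stood for it. The study asked how nasal mucosa of a mouse model of allergic rhinitis changes on allergen exposure and after the allergen has been avoided. All mice were labelled BALB/c, male and 6 to 8 weeks old, without saying at which point of the experiment that age was taken. The control group received saline in place of ovalbumin (OVA) at both sensitization and challenge, the OVA group was sensitized to and challenged with OVA and killed 2 hours after the last challenge, and the 4-week group had the same OVA schedule but was killed 4 weeks after its last challenge. RNA of each group was hybridised to 3 Affymetrix Mouse Gene 1.0 ST arrays, 9 in all. No label says whether an array holds 1 animal or a pool, so the p-values measure the spread between arrays.

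Detoxification is usually described in steps. Oxidases, dehydrogenases, hydrolases and esterases expose or create a reactive group; transferases then attach glutathione, sulfate or glucuronic acid, which makes the product soluble and easier to export. The nose is rich in these enzymes. In the olfactory part of the mucosa, sustentacular cells (the support cells between the olfactory neurons) and the cells of Bowman glands carry much of this machinery, where it meets inhaled chemicals and also clears odorants.

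Values are log2 expression, so a difference of 1 is a factor of 2. The 9 arrays had similar median values, from 6.38 to 6.45 over the probe sets with a gene name, and arrays of the same group correlated at r of 0.986 to 0.992 across those probe sets, against 0.973 to 0.988 between groups. Marker levels matched the tissue label: the olfactory support-cell P450 Cyp2g1 read 12.69 to 12.99 and the olfactory neuron protein Omp 11.47 to 12.43 on all 9 arrays. One label went against the data. Xist, the RNA made from the inactive X chromosome of female cells, read 10.63 to 11.11 on the 3 control arrays and 4.22 to 4.42 on the other 6, and the Y-linked gene Eif2s3y read 3.00 to 3.58 on the control arrays and 8.08 to 8.47 on the other 6. The libraries labelled control thus carry a female pattern under a male label, and in both comparisons against them the treatment and this sex pattern cannot be told apart. Only the comparison of the 4-week with the OVA arrays has the same pattern on both sides, and it is therefore treated here as the main one. The labels do not give the age at death, so time since challenge and a possible age difference cannot be told apart in it. The 3 comparisons share arrays with one another, so they are not independent of each other.

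The upstream sequences of 3 members are shown first because, of the members with an upstream window in the RefSeq table used, these rose most between the OVA and the 4-week arrays. Each line gives the 250 bases before the annotated start (RefSeq, assembly GRCm38.p6), read 5′ to 3′ on the gene's own strand. Capitals mark a match to the core of the antioxidant response element (TGACNNNGC), which NRF2 binds, or of the xenobiotic response element (GCGTG), which the aryl hydrocarbon receptor binds, on either strand.
Aox3, chr1:58112886-58113135, plus strand: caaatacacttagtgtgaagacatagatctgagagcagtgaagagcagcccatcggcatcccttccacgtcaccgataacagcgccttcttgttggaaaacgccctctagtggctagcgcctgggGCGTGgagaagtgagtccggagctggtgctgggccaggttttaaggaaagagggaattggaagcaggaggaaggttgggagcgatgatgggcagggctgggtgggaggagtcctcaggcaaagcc
Gsta3, chr1:21240335-21240584, plus strand: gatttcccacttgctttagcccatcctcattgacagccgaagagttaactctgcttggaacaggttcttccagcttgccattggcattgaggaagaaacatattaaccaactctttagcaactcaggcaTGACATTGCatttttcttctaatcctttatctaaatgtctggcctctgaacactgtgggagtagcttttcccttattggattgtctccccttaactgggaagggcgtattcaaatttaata
Ephx1, chr1:181017570-181017819, minus strand: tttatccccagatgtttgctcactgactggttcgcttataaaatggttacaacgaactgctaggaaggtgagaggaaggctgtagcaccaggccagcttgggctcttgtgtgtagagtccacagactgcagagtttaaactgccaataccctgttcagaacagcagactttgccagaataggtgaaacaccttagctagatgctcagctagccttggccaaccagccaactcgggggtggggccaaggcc
Aox3 holds the xenobiotic core 125 bases before its start, Gsta3 holds the antioxidant core 121 bases before its start, and the Ephx1 window holds neither. Over windows of 250 bases before and 50 after the start, the antioxidant core lies in 3781 of the 27025 genes of the table (14%) and in 5 of the 78 members that have a window (6.41%). The xenobiotic core lies in 35.2% of all genes and in 17 of these members (21.8%). Of the 36 such members above the median level of all named probe sets, 5 hold the antioxidant core (13.9%) and 14 the xenobiotic core (38.9%). Of the 10 members with a window that rose from the OVA to the 4-week arrays, 1 holds the antioxidant and 4 hold the xenobiotic core. The glucocorticoid response element (a palindrome) was searched as well and lies in 0.537% of all genes and in none of the 78 members. A match is a string of letters and says nothing of binding.

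From the OVA to the 4-week arrays, 14 of the 94 enzymes rose and none fell. They are Aox3, Fmo1, Ephx1, Aldh4a1, Aldh6a1, Ces1d, Ces1e, Ces1f, Gsta3, Gsta4, Gstm1, Gstm3, Gstz1 and Sult1a1, and they come from 7 of the 8 families. Their rises ran from 1.28-fold for Gsta4 to 2.00-fold for Aox3. This is 14.89% of the members, against 6.33% of the 23410 named probe sets called in this comparison, 3.81% of them higher and 2.51% lower (limma moderated test, Benjamini-Hochberg adjusted p under 0.05 over all named probe sets). At an unadjusted p under 0.05, 22 members were higher and 3 lower, against 2853 and 2745 of the 23410 named probe sets. All 4-week arrays lay above all OVA arrays for 23 members and below them for 5, against 14.5% and 13.7% of all probe sets. The median member was 0.11 higher on the log2 scale and the median probe set 0.02 lower. In bulk RNA of this kind, more cells of a type and more RNA per cell cannot be told apart. The count rests on few arrays: it was 6 without OVA replicate 3, 7 without 4-week replicate 2, 8 without 4-week replicate 3 and 9 without either 4-week replicate 1 or control replicate 2. The shares of all probe sets that passed in these fits are not given here, so the fall is not shown to be particular to the enzymes.

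All members that rose stood above the median level. Of the 94, 46 had a mean above 6.42, the median level of all named probe sets, and all 14 were among these, or 30.43%, against 6.81% of all probe sets above that level that were higher and 3.62% that were lower. Of the 46, 41 had a 4-week mean above their OVA mean, against 6407 of the 11705 probe sets above that level. The median difference was 0.32, against 0.02 for all probe sets above that level. None of the 48 members below it rose. Among the 8 members with a mean over 10, 3 rose; among the 20 between 8 and 10, 5 rose; and among the 18 between the median level and 8, 6 rose. Averaged over the 46, the log2 level was 8.76, 8.67 and 8.57 on the control arrays, 8.56, 8.59 and 8.41 on the OVA arrays and 8.87, 8.87 and 8.85 on the 4-week arrays. The 4-week arrays were thus the highest and close to each other, and the control and OVA arrays overlapped.

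Few members passed from control to OVA, and the share at 4 weeks against control was near that of all probe sets. From control to OVA, only Gstm7 and Ephx1 passed, and both were lower, which is 2.128% of the members. Of all probe sets 1.30% passed, 0.782% higher and 0.521% lower, and of those above the median level 1.26% were higher and 0.325% lower. At an unadjusted p under 0.05, 19 members were lower and 5 higher, against 1855 and 1979 of the 23410 named probe sets. The median member was 0.11 lower and the median probe set 0.02 lower. The arrays did not overlap for 20 members lower and 5 higher in OVA, against 11.1% and 10.4% of all probe sets. The count of 2 became 0 without control replicate 1, control replicate 3, OVA replicate 1 or OVA replicate 3, and 1 without control replicate 2, 4-week replicate 2 or 4-week replicate 3. From control to 4 weeks, 9 members were higher (9.574%, against 7.92% of all probe sets) and 4 lower (4.255%, against 6.45%); in all, 14.4% of probe sets passed. Above the median level 8 of 46 members were higher and 2 lower, against 14.3% and 6.33% of all probe sets there. The arrays did not overlap for 19 members higher and 13 lower, against 16.6% and 18.4%. Those higher were Gsta3, Gsta4, Gstp3, Gstz1, Sult1a1, Ces1a, Ces1d, Ces1e and Ces1f, and those lower were Gstm7, Ugt2b34, Ephx4 and Ces5a. The count of 13 was 7 without control replicate 3 and 8 without either control replicate 2 or 4-week replicate 2. For the counts of 2 and 13, too, the shares of all probe sets that passed in these fits are not given. An F test over the 3 groups passed for 17 members (12.4% of all probe sets passed).

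**Figure D1:**
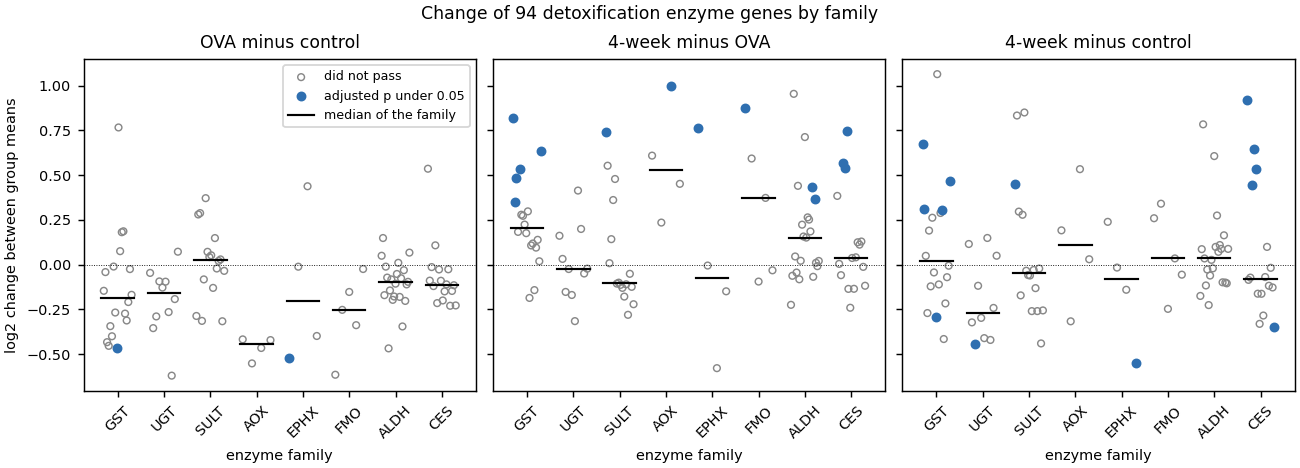
Log2 difference between group means (vertical axis) of each of the 94 genes, grouped by enzyme family, for the 3 comparisons; filled points passed at an adjusted p under 0.05, open points did not, and the bar is the family median. In the middle panel all 14 filled points lie above 0 and come from every family except the UDP-glucuronosyltransferases.

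Aldehyde oxidases are molybdenum enzymes that oxidise aldehydes and nitrogen-containing rings. All 4 measured genes of this family had a lower mean in OVA than in control and a higher mean at 4 weeks than in OVA, with family medians of -0.44 and 0.53. Aox3 alone passed, and only between OVA and 4 weeks. It read 9.40, 9.40 and 8.81 on the control arrays, 8.92, 8.78 and 8.52 on the OVA arrays and 9.60, 9.84 and 9.78 on the 4-week arrays. The 4-week arrays lay above all others, and the OVA and control arrays overlapped. The rise was 1.00 ± 0.17 (SE, limma) on the log2 scale, the largest of all members, with an adjusted p of 0.0142; it was 0.0564 without OVA replicate 3 and 0.0576 without 4-week replicate 2. Against control the difference was 0.53, with an adjusted p of 0.0663. Aox2, the family member most tied to the olfactory mucosa, had the highest level of the 4, at 10.82, 11.02 and 11.22 in control, 10.51, 10.64 and 10.24 in OVA and 10.81, 10.49 and 10.81 at 4 weeks. Its OVA arrays lay below every control array, and the difference of -0.55 did not pass (adjusted p 0.107). From OVA to 4 weeks it differed by 0.24 (adjusted p 0.348).

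Flavin monooxygenases add oxygen to nitrogen and sulfur atoms. Of the 5 measured, 3 stood above the median level (Fmo1, Fmo2 and Fmo5) and Fmo1, the most abundant, rose from OVA to 4 weeks. Fmo1 read 10.12, 9.90 and 9.74 in control, 9.20, 9.63 and 9.08 in OVA and 10.27, 10.19 and 10.08 at 4 weeks. Every OVA array was below every other array. The rise was 1.83-fold (0.87 ± 0.15 SE on the log2 scale, adjusted p 0.0142), and it missed the threshold without OVA replicate 3 (0.0539) or 4-week replicate 2 (0.0541). The difference between OVA and control was -0.62 and did not pass (adjusted p 0.091), nor did the 0.26 between 4 weeks and control (0.255). Fmo2 differed by 0.59 from OVA to 4 weeks (adjusted p 0.0575) and Fmo5 by 0.37 (0.21).

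Most aldehyde dehydrogenases oxidise aldehydes to acids, in amino acid breakdown, retinoic acid synthesis and the clearing of lipid aldehydes. The family had 21 measured genes. Only the mitochondrial enzymes Aldh4a1, of proline breakdown, and Aldh6a1, of valine breakdown, rose from OVA to 4 weeks, and none of the family passed in either comparison with control (unadjusted p under 0.05 for 2 lower in OVA, and for 1 higher and 2 lower at 4 weeks). Aldh6a1 was very even in the OVA group, at 8.33, 8.35 and 8.34, against 8.57, 8.53 and 8.53 in control and 8.53, 8.72 and 8.87 at 4 weeks. Its rise was 0.37 ± 0.08 (SE) with an adjusted p of 0.0388. Aldh4a1 read 6.93, 6.83 and 6.94 in control, 6.46, 6.70 and 6.50 in OVA and 6.98, 6.83 and 7.16 at 4 weeks, a rise of 0.43 ± 0.10 (SE, adjusted p 0.0381). Each of these calls was lost in 8 of the 9 fits that left out 1 array. The most abundant member, Aldh1a1, which makes retinoic acid, had a larger difference but did not pass. It stood at 10.27, 9.86 and 9.25 in control, 9.87, 10.01 and 8.99 in OVA and 10.79, 10.61 and 10.33 at 4 weeks, so the 4-week arrays were the highest and replicate 3 was the lowest in every group. Its difference from OVA to 4 weeks was 0.95 ± 0.31 (SE, adjusted p 0.102).

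Epoxide hydrolases open reactive epoxides with water. The microsomal enzyme Ephx1 read 9.62, 9.81 and 9.60 in control, 9.31, 9.14 and 9.01 in OVA and 10.06, 9.88 and 9.81 at 4 weeks. The 3 OVA arrays lay below all the others, while the highest control and the lowest 4-week array both rounded to 9.81. It was 1.44-fold lower in OVA than in control (-0.52 ± 0.10 SE, adjusted p 0.0493), a call lost in 8 of the 9 fits without 1 array (adjusted p up to 0.153). It was 1.70-fold higher at 4 weeks than in OVA (0.76 ± 0.10 SE, adjusted p 0.00616), a call kept in all 9. The 4-week arrays differed from control by 0.24 (adjusted p 0.14). Ephx4 followed another course, at 7.56, 7.32 and 7.39 in control, 6.90, 7.09 and 7.09 in OVA and 6.96, 6.77 and 6.90 at 4 weeks. It was 1.46-fold lower at 4 weeks than in control (adjusted p 0.00737, kept in all 9 such fits), and the OVA and 4-week arrays overlapped. Ephx3, below the median level, had the largest fall of any member from OVA to 4 weeks, which did not pass (-0.58, adjusted p 0.0524). Ephx2, which encodes the soluble hydrolase, stood at a mean of 4.98.

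Carboxylesterases cleave esters and amides and take part in lipid turnover. Only 4 of the 16 stood above the median level, the Ces1 genes Ces1a, Ces1d, Ces1e and Ces1f, and all 4 were higher at 4 weeks than in control. Ces1e read 6.97, 6.86 and 6.96 in control, 7.13, 7.05 and 6.93 in OVA and 7.55, 7.57 and 7.62 at 4 weeks. The 4-week arrays were tightly grouped above the rest, 1.57-fold over control (adjusted p 0.00239, the smallest of any member and comparison) and 1.45-fold over OVA (0.54 ± 0.07 SE, adjusted p 0.00583). Ces1f read 7.88, 7.79 and 7.94, then 7.52, 7.62 and 7.83, then 8.33, 8.27 and 8.62 in control, OVA and 4-week arrays. It was 1.68-fold higher at 4 weeks than in OVA (adjusted p 0.00847) and higher than control by 0.53 (0.0163; 0.058 without control replicate 2). Ces1a differed in its pattern: it stood at 10.34, 10.40 and 10.68 in control, 11.07, 10.80 and 11.15 in OVA and 11.27, 11.34 and 11.56 at 4 weeks. Its OVA arrays already lay above every control array, by a mean of 0.54 that did not pass (adjusted p 0.0843), and at 4 weeks it was 1.89-fold over control (0.92 ± 0.13 SE, adjusted p 0.00394). The step from OVA to 4 weeks was 0.38 (adjusted p 0.107). Ces1d, the most abundant of the family, read 11.12, 10.95 and 11.10 in control, 11.06, 11.07 and 10.67 in OVA and 11.54, 11.37 and 11.59 at 4 weeks. Its rise of 0.57 ± 0.12 (SE) over OVA had an adjusted p of 0.0281, lost in 4 of the 9 fits without 1 array, and its 0.45 over control had 0.0368, lost in 6. Ces5a, below the median level, was lower at 4 weeks than in control by its chosen probe set (5.13, 5.19 and 5.35 against 5.52, 5.61 and 5.58; adjusted p 0.0163), whereas its second probe set differed by -0.05 (0.592).

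Glutathione S-transferases join glutathione to electrophiles and were the family with the most calls, 5 of 18 higher at 4 weeks than in OVA. The alpha-class gene Gsta3 read 9.09, 9.06 and 8.88 in control, 8.93, 9.07 and 8.59 in OVA and 9.62, 9.80 and 9.63 at 4 weeks. The control and OVA arrays overlapped, and every 4-week array exceeded them all. It was 1.77-fold higher at 4 weeks than in OVA (0.82 ± 0.12 SE, adjusted p 0.00883) and 1.6-fold higher than in control (0.0101), both calls kept in all 9 fits without 1 array. Gstz1, which also serves in tyrosine breakdown, stood at 7.41, 7.60 and 7.62 in control, 7.46, 7.31 and 7.35 in OVA and 7.90, 7.93 and 8.20 at 4 weeks. It was 1.55-fold over OVA (adjusted p 0.0103) and 0.47 over control on the log2 scale (0.0181). Gsta4, which conjugates lipid aldehydes, read 10.74 to 10.95 on the 6 control and OVA arrays and 11.16, 11.11 and 11.24 at 4 weeks, a small rise over both (0.35, adjusted p 0.036; and 0.31, 0.0331) that was lost in 7 and 6 of the 9 fits.

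All 7 mu-class transferases had a lower mean in OVA than in control, which passed for Gstm7 alone. Gstm1, the most abundant glutathione S-transferase, read 11.09, 11.21 and 11.23 in control, 10.72, 10.99 and 10.53 in OVA and 11.29, 11.31 and 11.08 at 4 weeks. Its OVA arrays lay below all the others. The OVA difference from control of -0.43 did not pass (adjusted p 0.121), the rise to 4 weeks of 0.48 ± 0.12 (SE) did (0.0454), and the 4-week arrays differed from control by 0.05 (0.795; 95% interval -0.22 to 0.31). Gstm3 rose by 0.53 ± 0.13 (SE) from OVA to 4 weeks (adjusted p 0.0426), and its second, dimmer probe set differed by 0.50 (0.0577). The Gstm1 and Gstm3 calls were each lost in 8 of the 9 fits without 1 array. Gstm7 was lower than control in both groups: it read 8.13, 7.94 and 8.12 in control, 7.57, 7.63 and 7.60 in OVA and 7.77 on all 3 arrays at 4 weeks. It was 1.38-fold lower in OVA (-0.47 ± 0.07 SE, adjusted p 0.0195) and still 0.29 below control at 4 weeks (-0.29, adjusted p 0.0269), calls lost in 4 and 5 of the 9 fits. The identical 4-week values of Gstm7 leave no measured spread in that group. Gstp3, of the pi class and below the median level, was 0.30 higher at 4 weeks than in control (adjusted p 0.0261, lost in 4). Gsto1, of the omega class, had the largest difference of any member from control to OVA (0.77, adjusted p 0.434) and to 4 weeks (1.06 ± 0.45 SE, 0.136), and passed in neither. It ranged from 6.69 to 8.28 within the control group alone.

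Sulfotransferases attach sulfate. Of the 16 genes 5 stood above the median level, and Sult1a1, which sulfates phenols, is the only one that passed. It read 6.58 on all 3 control arrays, 6.31, 6.20 and 6.36 in OVA and 6.84, 7.27 and 6.98 at 4 weeks, so that the 3 groups did not overlap. It was 1.67-fold higher at 4 weeks than in OVA (0.74 ± 0.10 SE, adjusted p 0.00733, kept in all 9 fits without 1 array) and 0.45 higher than in control (0.0233, lost in 3). The identical control values leave no measured spread in that group. The most abundant of all 94 members was Sult1c1, a marker of the olfactory support cells, at 11.28, 11.32 and 11.58 in control, 11.82, 11.59 and 11.63 in OVA and 11.69, 11.53 and 11.84 at 4 weeks. It differed by 0.01 between OVA and 4 weeks (adjusted p 0.976) and by 0.30 between control and 4 weeks (0.105). Sult1e1, the estrogen sulfotransferase, had the third largest rise in mean between control and 4 weeks of all members, 0.85, which did not pass (adjusted p 0.0561). Its arrays spread from 8.95 to 9.74 in control and from 9.81 to 10.55 at 4 weeks.

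UDP-glucuronosyltransferases attach glucuronic acid. The 10 genes of this family that met the rule, all of the Ugt2 and Ugt3 groups, read between 2.92 and 5.24 on average, all below the median level, and none passed between OVA and 4 weeks or between control and OVA (unadjusted p under 0.05 for 1 higher in the first and 3 lower in the second). Ugt2b34 was lower at 4 weeks than in control, at 3.96, 3.98 and 4.23 against 4.41, 4.55 and 4.54, a difference of -0.44 with an adjusted p of 0.0362 that was lost in 6 of the 9 fits. Ugt2b5 had the largest fall of any member from control to OVA, which did not pass (-0.62, adjusted p 0.291). The files hold no detection calls, so whether these probe sets are above background was not settled. No gene of the Ugt1 group was among the 10, nor was Ugt2a1 or Ugt2a2, so the family was covered only in part.

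**Figure D2:**
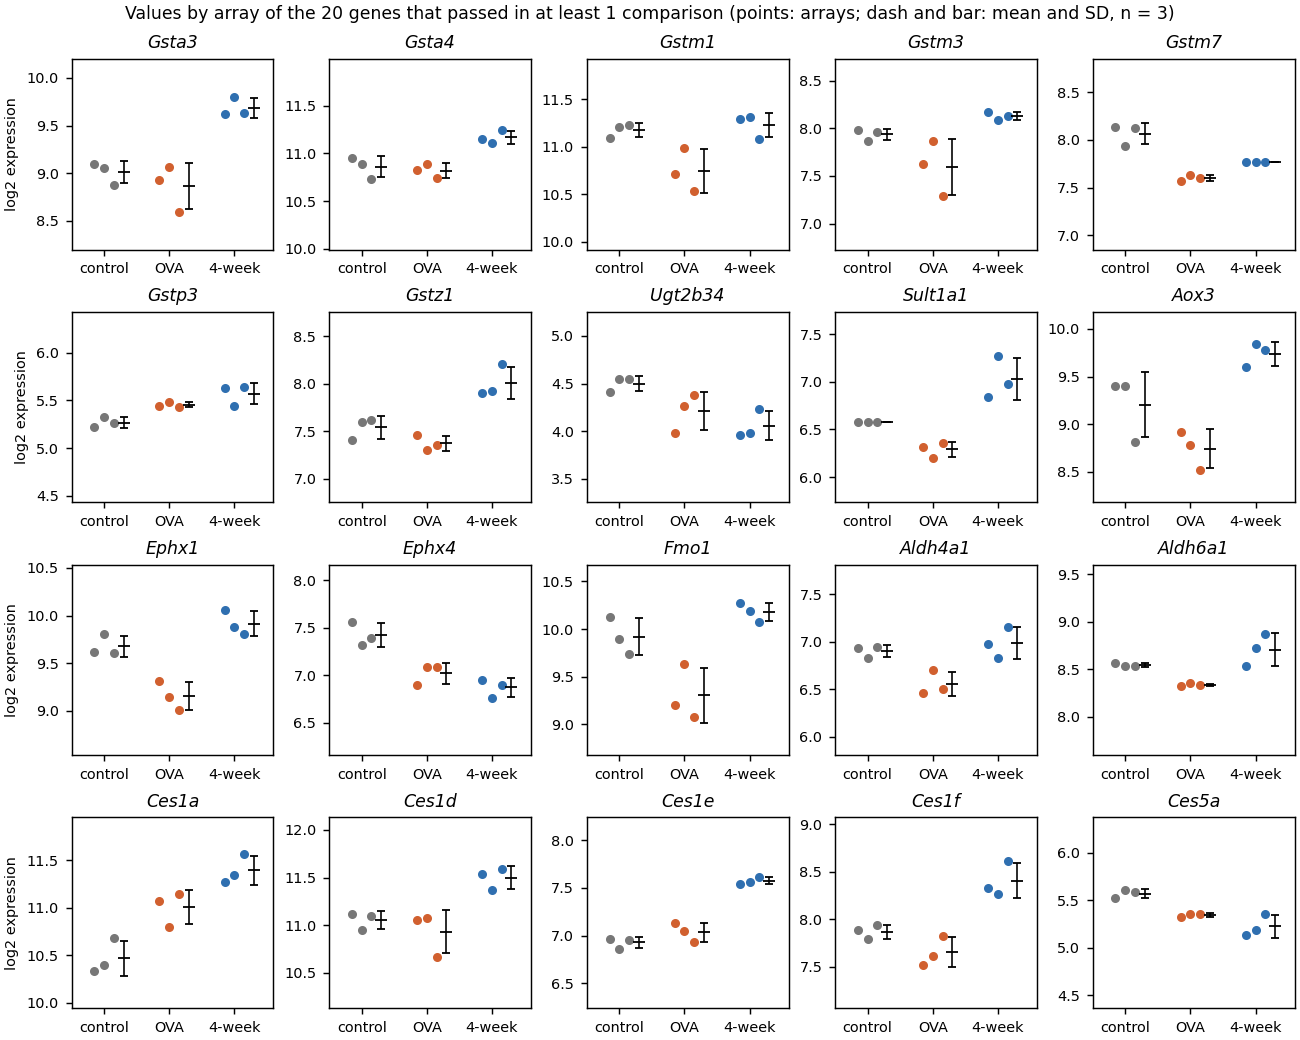
Log2 expression (vertical axis, each panel spanning the same length of scale) on every array of the 20 genes that passed in at least 1 comparison, by group; points are arrays, and the dash and bar are the mean and SD of 3 arrays. Gsta3, Gstz1, Ces1e and Ces1f show the 4-week arrays above the other groups, Ephx1 and Fmo1 the OVA arrays below the others, and Ephx4 and Gstm7 the control arrays above the others.

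Many of these genes lie beside close relatives on the chromosome, and the neighbours did not all pass. The Ces1 genes lie in the order Ces1a to Ces1g, followed by Ces5a. From OVA to 4 weeks the adjacent genes Ces1d, Ces1e and Ces1f rose by 0.57, 0.54 and 0.75, while Ces1b, Ces1c and Ces1g differed by 0.00 (95% interval -0.21 to 0.22), -0.06 (-0.34 to 0.22) and -0.14 (-0.40 to 0.13). These 3 had means of 5.55, 3.13 and 4.69, below the median level and well under those of the genes that rose. With no detection calls, a flat reading there does not show that the gene was unchanged. In the mu-class cluster, whose order is Gstm5, Gstm7, Gstm6, Gstm3, Gstm2, Gstm1 and Gstm4, all 7 differences from OVA to 4 weeks were above 0, from 0.18 to 0.53. The 95% intervals of Gstm5, Gstm6, Gstm2 and Gstm4 included 0. The Gstm3 value is from its brighter probe set, and the dimmer one differed by 0.50. The brighter one is numbered apart from the probe sets of Gstm7, Gstm6, Gstm2, Gstm1 and Gstm4. Whether it reads this locus was not tested. The aldehyde oxidases lie in the order Aox1, Aox3, Aox4 and Aox2, with differences of 0.61, 1.00, 0.45 and 0.24. Close relatives in the Ces1, Gstm and Ugt2b groups are similar in sequence, and how far their probe sets share signal is not known here.

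**Figure D3:**
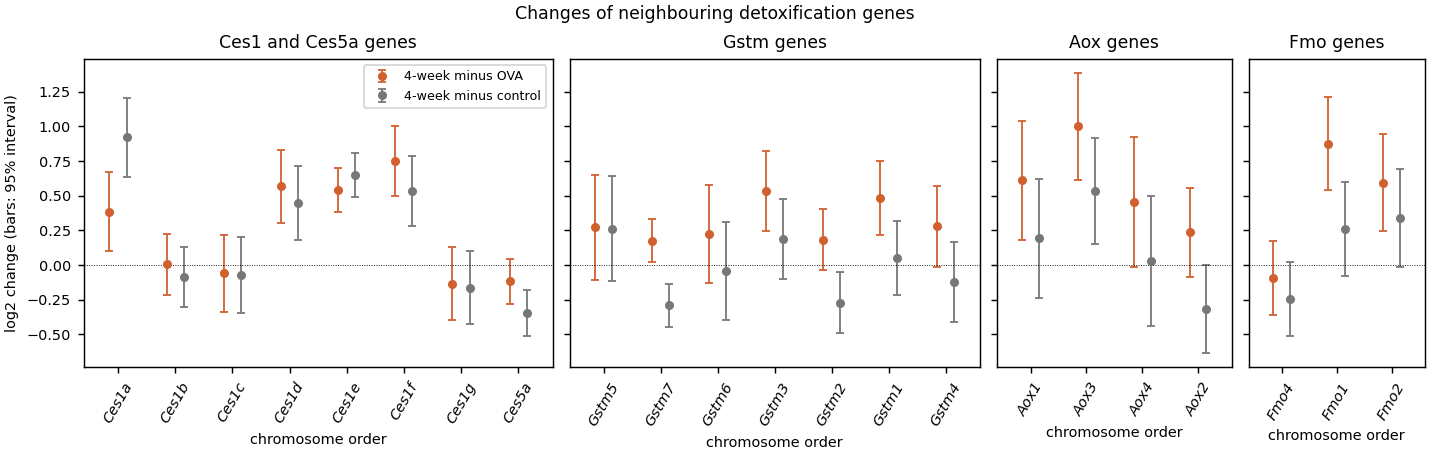
Log2 difference of neighbouring genes in chromosome order, for 4-week minus OVA (orange) and 4-week minus control (grey), with 95% intervals from limma. Ces1d, Ces1e and Ces1f lie above 0 in both comparisons while the dimmer Ces1b, Ces1c and Ces1g on either side of them lie near 0. The Gstm points lie above 0 against OVA and on both sides of 0 against control. Against OVA, the intervals of Gstm5, Gstm6, Gstm2 and Gstm4 cross 0.

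Levels of cell type markers are given beside these results. The 18 measured markers of sustentacular and Bowman gland cells, which include the member Sult1c1, averaged 10.14 to 10.34 on the control arrays, 9.67 to 9.95 on the OVA arrays and 10.01 to 10.30 on the 4-week arrays. None passed between OVA and 4 weeks (unadjusted p under 0.05 for 5 higher and 4 lower), the median difference was 0.08, and Bpifb9a, a gland product, was lower in OVA than in control. The gap between the OVA and 4-week means came from Bpifb9a and its neighbour Bpifb9b, which differed by 2.27 and 2.70 without passing (adjusted p 0.161 and 0.12). Without these 2, chosen after their values were seen, the other 16 averaged 10.24, 10.19 and 10.11 on the OVA arrays and 10.27, 10.23 and 10.15 on the 4-week arrays, which overlap. The 10 measured markers of ciliated cells averaged 7.13 to 7.63, 6.99 to 7.37 and 7.46 to 7.63, and the dynein Dnah9 alone passed, 0.91 higher at 4 weeks than in OVA. The OVA and 4-week means of the ciliated list did not overlap. Those of 12 respiratory secretory and basal markers did not either, but were lower at 4 weeks (8.992 to 9.022, against 9.079 to 9.245 in OVA). None of the 12 passed there, and their median difference was -0.005. The largest was that of Muc5ac, at -1.48 (adjusted p 0.297), so the lower mean does not stand for the list as a whole. The means of 10 squamous markers were also lower at 4 weeks (5.054 to 5.19, against 5.307 to 5.731 in OVA). Sprr1a alone passed among them, with by far the largest difference, -2.72 (adjusted p 0.0422). The median difference of the list was -0.21, and 9 of the 10 stood below the median level of all named probe sets. The means of 14 olfactory neuron markers overlapped (9.518 to 9.947 at 4 weeks, against 9.684 to 9.874 in OVA), and 2 of these markers were lower at 4 weeks than in control. The part of these lists in the rise of the enzymes was not tested. The 14 leukocyte markers averaged 5.66 to 6.32, 6.02 to 6.68 and 5.97 to 6.28, and none passed in any comparison (unadjusted p under 0.05 for 5, 2 and 2 of them). A list of 16 measured genes expressed chiefly in liver holds plasma protein genes and the enzymes Cps1 and Tat. It averaged 5.56 to 5.95 in control against 4.78 to 4.97 in OVA and 4.69 to 4.78 at 4 weeks. Of these genes 8 and 13 were lower than in control, against 0.521% and 6.45% of all probe sets. The part of the liver genes in the differences from control was not tested either.

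The arrays numbered 3 were the lowest of their group more often than those numbered 1 or 2. Among the 46 members above the median level, control replicates 1, 2 and 3 were the lowest in 10, 16 and 20. The counts were 11, 12 and 23 in OVA and 14, 13 and 19 at 4 weeks. An example is the aldehyde dehydrogenase Aldh3a1, at 9.06, 8.91 and 7.81 in control, 8.66, 9.12 and 7.68 in OVA and 9.27, 9.42 and 8.91 at 4 weeks. The mean of the ciliated cell markers was also lowest on replicate 3 of each group, at 7.63, 7.32 and 7.13 in control, 7.37, 7.31 and 6.99 in OVA and 7.63, 7.59 and 7.46 at 4 weeks. The olfactory neuron markers did not follow this order. They averaged 9.71, 9.90 and 10.15 in control, 9.68, 9.87 and 9.81 in OVA and 9.95, 9.52 and 9.55 at 4 weeks. Lowest arrays were not counted over all probe sets, so the pattern is not shown to be particular to the enzymes. Whether the enzymes and the ciliated markers move together for a shared reason was not tested.

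**Figure D4:**
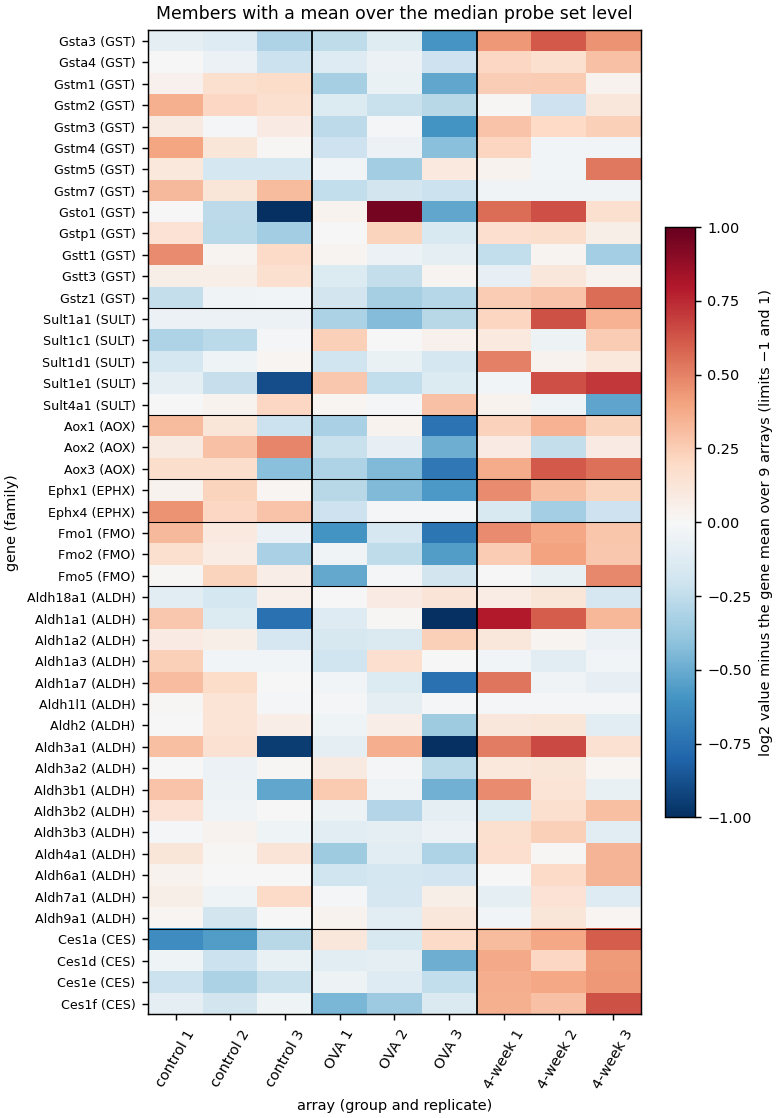
Log2 value minus the gene's own mean over 9 arrays (colour, stopping at -1 and 1) for the 46 members above the median level; rows are genes by family and columns are arrays by group and replicate. The 4-week columns are mostly red and OVA 3 is mostly blue, and Gsto1, Aldh1a1 and Aldh3a1 stand out by their low values on control 3 and OVA 3.

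Some enzymes of like function outside the symbol rule also rose. Of 40 measured genes in a list of further conjugating, reducing and oxidising enzymes, 7 rose from OVA to 4 weeks and none fell (unadjusted p under 0.05 for 16 higher and 0 lower), with a median difference of 0.17. Of all probe sets 3.81% were higher and 2.51% lower in this comparison. Nat1, an arylamine acetyltransferase, read 4.85, 4.92 and 4.65 in control, 4.82, 4.60 and 4.92 in OVA and 5.73, 5.33 and 6.09 at 4 weeks, with no overlap between the 4-week and the other arrays (0.94, adjusted p 0.0204). Adh1, an alcohol and retinol dehydrogenase, rose by 0.50 (adjusted p 0.0158), Akr1c14, a steroid reductase, by 0.64 (0.0115), and Gstk1, the kappa-class transferase that the rule did not take, by 0.47 (0.037). The other 3 were Maob (0.55, 0.0279), Akr1c18 (0.57, 0.0426) and Akr1a1 (0.26, 0.039). From control to OVA, Tst, a sulfurtransferase, fell by 0.57 (adjusted p 0.0189), and none rose (unadjusted p under 0.05 for 3 higher).

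Among the genes that supply cofactors, some were highest in the OVA arrays and others at 4 weeks. Slc7a11, the cystine importer that feeds glutathione synthesis, read 7.42, 6.98 and 6.72 in control, 8.27, 8.59 and 8.09 in OVA and 7.38, 7.47 and 7.50 at 4 weeks. Its OVA arrays stood above all others, 1.28 ± 0.18 (SE) over control (adjusted p 0.016) and falling by 0.87 to the 4-week level (0.0264). Gclm, the regulatory subunit of the first enzyme of glutathione synthesis, rose by 0.55 from control to OVA (adjusted p 0.0457) and stood 0.72 over control at 4 weeks (0.00522). Gclc, its catalytic subunit, was 0.91 over control at 4 weeks (adjusted p 0.00911), with 10.55, 10.77 and 10.78 against 9.99, 9.80 and 9.57. Slc26a1, a sulfate transporter, rose by 0.92 in OVA (adjusted p 0.0219) and was 0.85 lower again at 4 weeks (-0.85, 0.0124). Cbs, of the route from homocysteine to cysteine, was lower in OVA than in control by 0.52 (-0.52, adjusted p 0.0393). Ugp2, which makes the UDP-glucose from which UDP-glucuronate is formed, rose by 0.62 from OVA to 4 weeks (adjusted p 0.0114). In all, of 23 measured genes of cofactor supply, 3 were higher and 1 lower in OVA than in control, 1 was higher and 2 were lower at 4 weeks than in OVA, and 4 were higher and 2 lower at 4 weeks than in control. The 2 lower were Cbs (-0.44, adjusted p 0.0183) and Gphn, of molybdenum cofactor synthesis (-0.31, 0.0332). In the same order of comparisons, the shares of all probe sets higher and lower were 0.782% and 0.521%, 3.81% and 2.51%, and 7.92% and 6.45%.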

How the data were processed

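The authors deposited a log2 value for each probe set and array, which they computed by RMA according to the submitters' processing notes. The sources used here do not give its software or settings. The table has 35556 rows. The platform annotation gives 23410 of them a symbol (21789 for 1 gene, 1621 for several) and leaves 12146 unnamed. The 94 members have 98 probe sets; 13 probe sets of several genes also match the symbol rule and were left out. One mean per group was fitted to the 9 arrays with limma 3.58.1 (R 4.3.3; lmFit, eBayes, two-sided), with 6 residual degrees of freedom, and p-values were adjusted by Benjamini-Hochberg over the named probe sets at 0.05. Members were named with values where they passed, led their family by mean or by the F test, or were among the 3 largest rises or falls of a comparison; list genes were named where they passed, up to 5 per list and comparison. Other members named have been chosen after their values were seen. The members and all lists were chosen with earlier results of these data known. Member symbols were matched in a RefSeq table (GRCm38.p6), all 94 of them. Array number limits the precision. Alternatives were another normalization, centring, filter, probe set choice, set of groups, variance model, a replicate block, and each array left out.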

Additional observations from a re-analysis of the deposited data

How the results depend on the processing

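Of the 29 single-gene calls of the 3 comparisons, none changed direction under any alternative. The number of members that passed was 2, 14 and 13 (OVA against control, 4-week against OVA, 4-week against control) and 17 by the F test. Under the alternatives below, such counts are given without the shares of all probe sets that passed in the same fits. Testing every row, unnamed ones included, left 1 from control to OVA. Fitting only the groups compared left 0 there (22 at an unadjusted p under 0.05) and 8 from OVA to 4 weeks; these fits use fewer arrays. Leaving out 1 array in turn gave 0 to 2, 6 to 11, 7 to 13 and 11 to 16 members; where it gave 0, 17 to 24 had an unadjusted p under 0.05. Calls lost were 6 with quantile normalization, 7 with every row, 2 with the dimmer probe set, 12 with only the compared groups, and none with median centring, 1 probe set per gene or a trended robust variance. Replicate numbers were not taken to pair the arrays, since not every same-numbered pair correlated above 0.1: correlations of same-numbered deviations were 0.307, 0.0311 and 0.147 for OVA and control, 0.185, -0.0286 and 0.332 for 4-week and OVA, and -0.0438, 0.059 and 0.186 for 4-week and control. An array correlated best with its own number in 11 of 18 cases, so a shared factor is not settled. With the replicate block, 2, 13 and 16 members passed, and 18 by the F test; the 2 were Ces1a higher and Gstm7 lower. It lost 7 of the 29 calls: Ephx1 from control to OVA (adjusted p 0.0534), Aldh4a1, Aldh6a1, Gsta4 and Gstm3 from OVA to 4 weeks, and Ces1d and Gsta4 from control to 4 weeks. Reversed signs, all in differences that had not passed, were as follows, and the cause was not tested. Sult1c1 from OVA to 4 weeks was -0.096 and Gstm1 from control to 4 weeks -0.047 with quantile normalization, and Ces5a from control to OVA was 0.026 with its dimmer probe set. With 1 array left out in turn, the difference from OVA to 4 weeks ranged from -0.068 to 0.084 for Sult1c1 (below 0 without OVA replicate 2, OVA replicate 3 or 4-week replicate 3), from -0.040 to 0.697 for Gsto1 (OVA replicate 3) and from -0.057 to 0.379 for Ugt2b5 (4-week replicate 3). From control to OVA it ranged from -0.440 to 0.147 for Aldh1a1 (above 0 without control replicate 1 or OVA replicate 3), from -0.104 to 0.0038 for Gsta4 (control replicate 1), from -0.19 to 0.012 for Ces1d (OVA replicate 3), from -0.299 to 0.083 for Ugt2b37 (OVA replicate 1) and from -0.077 to 0.086 for Sult4a1 (below 0 without control replicate 1, control replicate 2 or OVA replicate 3). With no detection calls, no background limit could be set for dim probe sets.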

Other observations

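Among 23 measured genes of xenobiotic sensing, which include the receptors and the partners of NRF2, 1 passed from control to OVA (1.30% of all probe sets passed), 3 from OVA to 4 weeks (6.33%) and 5 from control to 4 weeks (14.4%). At an unadjusted p under 0.05 there were 10, 6 and 10. Ahr, the aryl hydrocarbon receptor, read 7.60, 7.60 and 7.69 on the control arrays, 7.98, 8.10 and 8.17 on the OVA arrays and 7.78, 7.79 and 7.68 on the 4-week arrays. The OVA arrays lay above all others, 0.45 over control (limma adjusted p 0.024) and 0.33 above the 4-week mean (a change of -0.33 from OVA to 4 weeks, 0.0318). Mafg, a small partner protein of NRF2, was lower by 0.41 at 4 weeks than in OVA (-0.41, 0.0173), while the retinoic acid receptor Rarb was 0.52 higher (0.0142). Against control at 4 weeks, Nfe2l2, which encodes NRF2, was 0.29 higher (0.0245), Bach1, its repressor, 0.38 (0.0158), Tiparp, a target of the aryl hydrocarbon receptor, 0.46 (0.0113) and Rarb 0.31 (0.0495), while Hnf4a was lower (-0.42, 0.0142).

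Of 19 measured NRF2 target genes outside the 8 families, some of which are also in the cofactor list, 5 were higher at 4 weeks than in control and none lower (unadjusted p under 0.05 for 7 higher and 0 lower). Of all probe sets 7.92% were higher and 6.45% lower, and of those above the median level 14.3% and 6.33%. The 5 genes were Gclm, Gclc, Me1, Fth1 and Taldo1. From OVA to 4 weeks, Cat, which encodes catalase, rose by 0.78 (0.0275) and Slc7a11 fell. Of all probe sets, 6.33% passed between OVA and 4 weeks. Of 22 measured transporters that carry conjugates or xenobiotics, Abcc10 was the only one to pass there, at -0.46 (0.018). It also stood lower at 4 weeks than in control (-0.58), as did Abcb4 (-0.46).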
